A study of Danio rerio with 13 samples.

Results

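The ribosomal proteins of the cytosol were represented by 84 of the 32105 genes in the deposited count table. The members were all rows whose zebrafish symbol starts with rpl or rps followed by a digit, p or a, after 11 rps6k genes, which encode kinases of ribosomal protein S6, and rps27l had been left out. By symbol, 43 of these 84 genes were counted with the large subunit, 36 with the small subunit and 4 with the P stalk (rplp0, rplp1, rplp2 and rplp2l). The 43 include rpl7l1, which in yeast corresponds to a ribosome assembly factor. The remaining member, rps19bp1, meets the rule by its symbol but encodes a protein that binds Rps19. The 84 genes carry 80 distinct symbols, because 4 symbols each stand on 2 rows, and of these rpl5 and rps26 are told apart below by their Ensembl identifiers. All 84 passed the filter on low counts, so no member was lost before testing.

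A ribosome is built from a small subunit, which reads the mRNA, and a large subunit, which joins amino acids, and nearly all of its proteins are needed in equal number. The P stalk is the arm of the large subunit that draws in the elongation factors, with Rplp0 at its base and Rplp1 and Rplp2 bound to it. In vertebrates, the mRNAs of these proteins begin with a pyrimidine-rich stretch through which growth signalling by mTORC1 raises or lowers their translation together, so the amount of mRNA alone does not give the rate at which the proteins are made. Loss of a copy of a ribosomal protein gene causes Diamond-Blackfan anaemia in humans, and surplus RPL5 and RPL11 can bind the p53 inhibitor MDM2.

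RNA was sequenced from the skin of male zebrafish of the AB strain aged 3 months. The fish were homozygous mutants for tert (HOM, tert−/−, n = 3), heterozygous mutants (HET, tert+/−, n = 5) or wild type (WT, tert+/+, n = 5), and the mutant line, hu3430, carries a premature stop codon in the gene of the catalytic protein of telomerase. The question was whether skin transcripts differed with the number of mutant copies. Neither the labels nor the methods tie each sample to a named fish, so a p-value here reflects how far these samples spread and may include technical spread.

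Total counts per library ran from 15709310 to 30249877, and the genes of the mitochondrial genome took 19.9% (HOM1) to 56.4% (HOM3) of them. The tert transcript was detected in every library, at 15.69 to 37.3 CPM in HOM, 14.5 to 40.4 CPM in HET and 7.08 to 13.4 CPM in WT, where CPM are counts relative to library size after scaling of the libraries by trimmed mean of M-values. Every HOM and every HET sample was above every WT sample, as in 0.439% and 0.366% of all genes tested, while HOM and HET overlapped. A stop codon need not lower a transcript, so its level was not used as a check on the genotypes. Of 26 marker genes of skin epithelium, 25 had counts in every library, and krt93 was at 0 in some. All 39 skeletal muscle genes had counts in every library, with summed levels of 10001 to 105154 CPM in HOM, 20158 to 96869 CPM in HET and 5431 to 135099 CPM in WT. Genes of liver and plasma proteins summed to 686 to 1696 CPM in HOM, 918 to 1667 CPM in HET and 773 to 50802 CPM in WT, with the highest value in WT5, and the egg protein genes vtg2 and zp2.1 were at 0 in every library.

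Together, the 84 genes took a sizeable share of the mRNA of every skin sample. Their share of all counts was 7.89%, 5.84% and 4.54% in the HOM samples, 6.33%, 8.23%, 5.30%, 7.05% and 6.77% in the HET samples, and 8.33%, 9.0%, 7.67%, 6.11% and 8.29% in the WT samples. The means were 6.09% ± 1.69 (SD, n = 3) in HOM, 6.74% ± 1.07 (n = 5) in HET and 7.88% ± 1.09 (n = 5) in WT, and the 3 genotypes overlapped. Because mitochondrial transcripts filled a different part of each library, the share was also taken over the counts outside the mitochondrial genome.

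On that scale the members held 9.85%, 11.1% and 10.4% of the counts in HOM, 11.6%, 14.0%, 11.6%, 10.9% and 10.1% in HET, and 12.03%, 11.9%, 11.2%, 10.9% and 11.1% in WT. The means came to 10.5% ± 0.620 in HOM, 11.7% ± 1.42 in HET and 11.4% ± 0.515 in WT. HOM2 lay within the WT range and HOM1, HOM3 and HET5 lay below it, whereas HET2 was above every other sample. Counting error was far smaller than these differences, as the 95% Wilson interval of the shallowest library, HOM3, was 10.39% to 10.43%; such intervals cover counting error only. Which HOM samples were low depended on the measure. With counts divided by gene length, the share outside the mitochondrial genome was 17.1%, 15.2% and 14.2% in HOM. It was 15.2% to 20.7% in HET and 16.4% to 19.2% in WT. On that measure HOM1 lay within the WT range, and HOM2, HOM3, HET3, HET4 and HET5 lay below it. In a bulk sample, fewer cells of a type that is rich in these mRNAs and less of them per cell cannot be told apart.

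**Figure D1:**
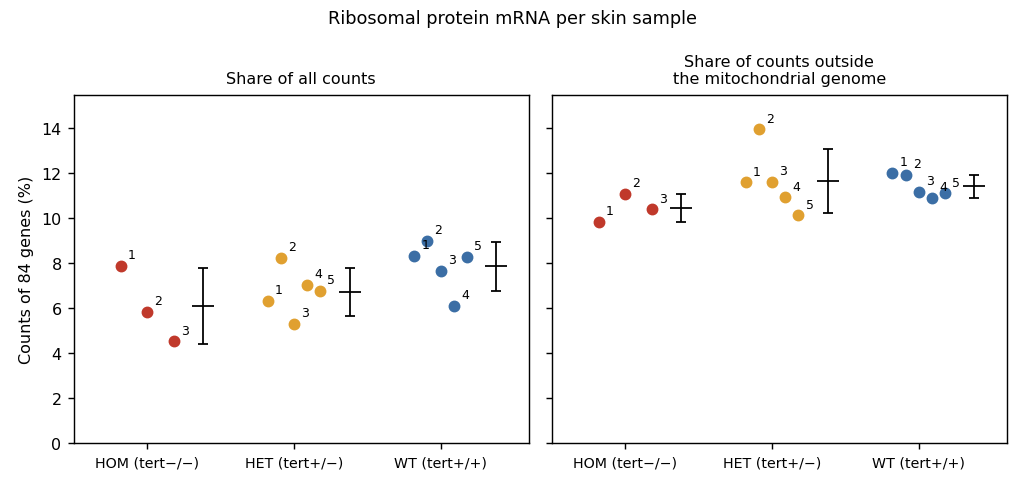
Share of counts (%, vertical axis) that fell on the 84 ribosomal protein genes in each skin sample, of all counts (left) and of counts outside the mitochondrial genome (right), for HOM, HET and WT. Points are samples with their replicate number, and black bars give the mean and SD; the HOM mean was 6.09% of all counts and 10.5% of those outside the mitochondrial genome, against 7.88% and 11.4% in WT.

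Large-subunit and small-subunit genes kept nearly the same proportion to each other in all samples. Counts of small-subunit genes per count of large-subunit genes were 0.819, 0.823 and 0.825 in HOM, between 0.805 and 0.857 in HET, and between 0.802 and 0.835 in WT. HOM samples therefore fell inside the ranges of both other genotypes. The stalk genes took 0.618%, 0.846% and 0.808% of the counts outside the mitochondrial genome in HOM, 0.796% to 1.08% in HET and 0.729% to 0.973% in WT, with HOM1 lowest and HET2 highest.

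Levels were compared between genes only per length, as RPKM (counts relative to the exon length of the gene and the total of the library). By mean RPKM, 41 of the 84 genes were among the first 100 of the 26598 genes outside the mitochondrial genome, and 77 were among the first 200. The 80 members that had at least 1000 counts in every library spanned 216 to 2677 RPKM, a 12.4-fold range, with a median of 756 RPKM. Stalk genes had a median of 1237 RPKM, the 34 small-subunit genes among them 777 RPKM and the 42 large-subunit genes 613 RPKM.

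The order of the genes was led by rplp0, the base of the stalk, with 2677 ± 644 RPKM (SD, n = 13). It was followed by rps20 (1981 ± 364 RPKM) and rps25 (1972 ± 474 RPKM) of the small subunit, rpl32 of the large subunit (1899 ± 380.5 RPKM) and rps7 of the small subunit (1822 ± 371 RPKM), and these 4 differed from each other by less than their SDs. The other stalk genes stood lower, at 1452 ± 307 RPKM for rplp2, 1021 ± 241 RPKM for rplp2l and 824 ± 173 RPKM for rplp1. The mRNA of rps27a, which encodes ubiquitin fused to a small-subunit protein, had 1051 ± 233 RPKM, and rpsa2, the name in the symbol table for the gene of ribosomal protein SA, had 924 ± 199 RPKM.

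Below the lowest of the 80 abundant genes, rpl22l1 with 216 ± 47.8 RPKM, the order broke off. The remaining 4 members lay at 17.6 RPKM or lower, among them rpl7l1 (17.6 ± 4.38 RPKM) and rps19bp1 (6.01 ± 1.30 RPKM).

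**Figure D2:**
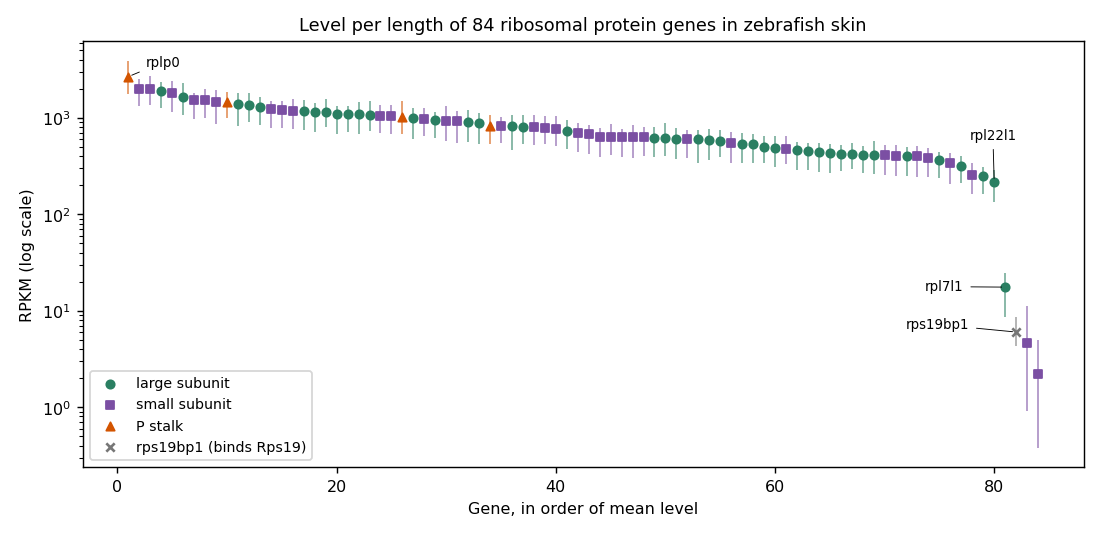
Mean RPKM over 13 skin samples (vertical axis, log scale) of the 84 genes in order of their mean level (horizontal axis), with lines from the lowest to the highest sample. Symbols mark large-subunit, small-subunit and P stalk genes and rps19bp1; 80 genes lie between 216 and 2677 RPKM, and 4 lie at 17.6 RPKM or lower.

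Among samples, the order of the genes was nearly fixed: Spearman correlations of the 84 RPKM values ran from 0.964 to 0.995 over the 78 pairs of samples. These correlations are across genes, which are not independent replicates. The members also varied less between samples than most genes. Their median SD of log2 CPM over the 13 samples was 0.24, against 0.58 over all 19141 genes tested, and their median dispersion in the edgeR fit was 0.0874 against 0.179. Abundant genes have less counting error, and the part of abundance in this difference was not tested.

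What variation there was ran through most members alike. A first principal component held 84.6% of the variance of the 80 abundant members. The median departure of the members from their own means was −0.32, 0.11 and −0.24 on the log2 scale in the HOM samples, −0.20, 0.45, −0.06, 0.10 and 0.02 in the HET samples, and −0.05, 0.06, −0.08, −0.14 and 0.35 in the WT samples. In scaled CPM, HET2 was the highest sample for 64 of the 84 genes and WT5 for 18, while HOM1 was the lowest for 56 and HOM3 for 17. The place of WT5 depended on the scale. By share of the counts outside the mitochondrial genome, HET2 was again highest, but WT5 (11.1%) was below WT1, WT2 and WT3.

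After this common shift was subtracted, the median SD dropped to 0.092. An SD over 0.2 was kept by 5 members, among them rplp2, rps19bp1 and rpl7l1, which leaves 79 at or under it. Least variable of all was rps27.1, a zinc-finger protein of the small subunit, with an SD of 0.17, followed by rpl8 and rpl7a (0.18 each), rps4y2, the name in the table for the rps4 gene, and rpl3, which lies near the catalytic centre (0.19 each). Among the most variable, rpl7l1 reached 0.41, rplp0 0.36 and rplp2 0.35.

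**Figure D3:**
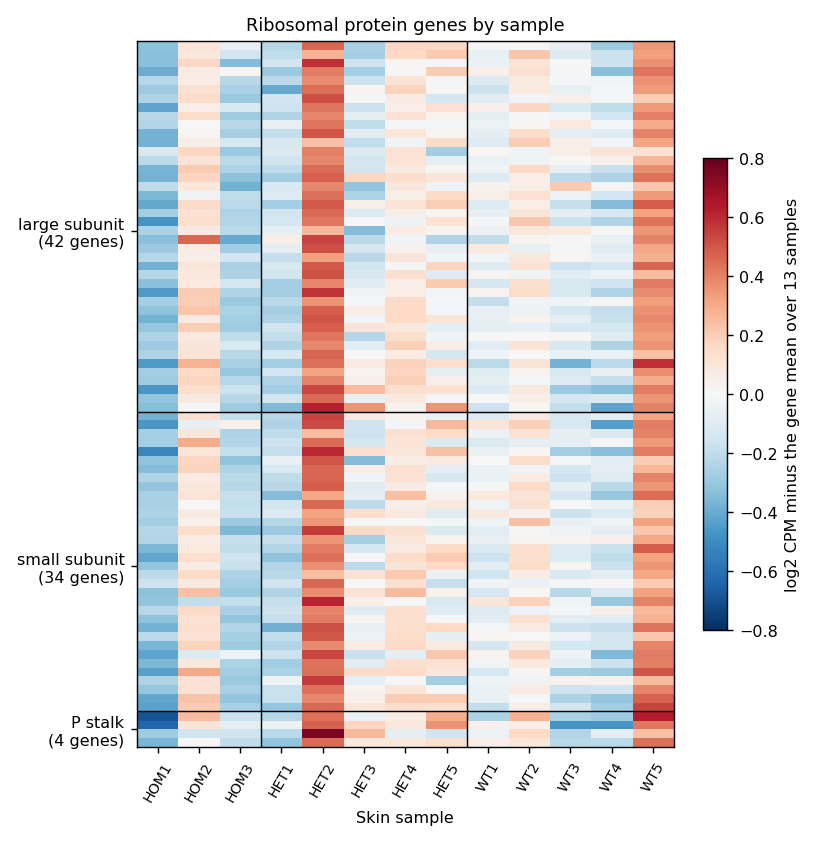
Log2 CPM of the 80 abundant genes (rows, by subunit and then by level) in 13 skin samples (columns), each minus the mean of its gene over the samples. Red is above and blue below the gene's mean. On this scale HET2 and WT5 are high and HOM1 and HOM3 low for nearly all genes.

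In the comparison of HOM with WT, no ribosomal protein gene passed the test. edgeR's quasi-likelihood test with Benjamini-Hochberg adjustment called 0 of the 84 members, beside 0% of all 19141 genes tested, and 0 members had an unadjusted p under 0.05, beside 2.73% of all genes. DESeq2 likewise called 0 members, beside 0.207% of the genes it tested. In no member were all HOM samples below all WT samples (0.742% of all genes) or above them (0.439%). All 84 fold changes were nevertheless below 0, as were 56.8% of all genes, with a median of −0.17 on the log2 scale against −0.05 over all genes. Since the members move together from sample to sample, their 84 signs are not 84 separate observations.

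The large-subunit and small-subunit genes had medians of −0.16 and −0.17, and the stalk genes one of −0.22. For the 80 abundant members the fold changes lay between −0.32 and −0.07, and the median 95% interval ran from −0.68 to 0.34, that is, from 0.624-fold to 1.26-fold. The median of the members was −0.05 without HOM1, −0.31 without HOM2, −0.09 without WT5 and −0.08 without WT1 and WT5. The median over all genes was then −0.05, −0.07, −0.03 and −0.02. Below 0 were 62, 83, 72 and 69 of the 84 members, in the same order. With the mean of the liver and plasma protein genes as covariate the median of the members was −0.02, with 51 below 0. With that of the skeletal muscle genes it was −0.15, with 83 below 0. The median over all genes was −0.02 with either covariate.

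Among the members with the smallest p was rpsa2, whose protein is also known as the laminin receptor, with 1827, 2272 and 1812 CPM in HOM against 2164, 2604, 2139, 2162 and 2771 CPM in WT. Its log2 fold change was −0.27 ± 0.23 (SE), with an unadjusted p of 0.261 and an adjusted p of 0.99997 in edgeR. The large-subunit gene rpl27 had 593, 777 and 639 CPM in HOM against 730.1, 851, 727, 719 and 1012 CPM in WT (−0.27 ± 0.24). In both genes HOM1 and HOM3 were below every WT sample and HOM2 was among them. Both rpl5 genes, whose protein carries 5S rRNA into the ribosome, had values of this size (−0.25 ± 0.22 for ENSDARG00000015862 and −0.24 ± 0.22 for ENSDARG00000020197), as did rpl10a (−0.26 ± 0.23) and rps26 ENSDARG00000037071 (−0.25 ± 0.25). None of these genes passed, with unadjusted p-values from 0.261 to 0.324 in edgeR.

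The comparison of HET with WT, which uses the same WT samples, gave fold changes on both sides of 0. edgeR called 0 of the 84 members (0% of all genes tested), DESeq2 called 0 (0.517% of the genes it tested), and 1 member had an unadjusted p under 0.05, beside 5.5% of all genes. The median was 0.04, against −0.04 over all genes, with 66 members above 0 (45.6% of all genes) and 18 below it (54.4%). In no member were all HET samples above all WT samples (0.366% of all genes) or below them (0.199%). Without HET2 the median was −0.08. Without scaling beyond library size the median of the members was −0.22, and that of all genes −0.29, so the members' place relative to other genes was 0.07 with no scaling and 0.08 with it.

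The member under 0.05 was rpl7l1, a relative of rpl7 that in yeast corresponds to a ribosome assembly factor. It had 31.1, 51.2, 36.5, 46.3 and 36.9 CPM in HET, against 19.1, 28.3, 24.8, 38.5 and 31.6 CPM in WT. HET samples were higher on average and overlapped with WT4 and WT5, and the log2 fold change of 0.51 ± 0.22 had an unadjusted p of 0.0399 and an adjusted p of 0.873 in edgeR. The HOM samples, at 27.6, 34.6 and 20.7 CPM, lay within the WT range.

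No other member had an unadjusted p under 0.05 in HET against WT, and those named next were low only in rank among the members. Their unadjusted p-values in edgeR ran from 0.222 (rpl22l1) to 0.518 (rps27.2). Values for rpl22l1, the close relative of rpl22, were 130.0, 255, 212, 169.5 and 212 CPM in HET and 148, 168, 145, 124 and 218 CPM in WT (0.29 ± 0.22). Further genes were rplp2 of the stalk (0.27 ± 0.23), rps29 (0.22 ± 0.22), rpl38 (0.20 ± 0.22), rps21 (0.14 ± 0.20) and rps27.2 (0.14 ± 0.21), and the direction of the last 4 turned below 0 without scaling beyond library size.

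HOM set directly against HET shares its HOM samples with the first comparison and its HET samples with the second, so these results are not independent of them. edgeR called 0 of the 84 members (0% of all genes tested) and DESeq2 0 (0.00379% of the genes it tested), and 0 members had an unadjusted p under 0.05, beside 2.74% of all genes. The median was −0.21, against −0.01 over all genes, with 83 members below 0 (51.2% of all genes) and 1 above it (48.8%), which was rps19bp1 at 0.04. Leaving out HOM1 gave a median of −0.09, leaving out HOM2 −0.35, and leaving out HET2 −0.11.

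In 1 of the 84 members all HOM samples were below all HET samples, beside 1.53% of all genes, and in 0 members were they above (0.972%). The lowest p-values in edgeR belonged to rpl7l1 (−0.55 ± 0.26, unadjusted p = 0.0547) and rpl22l1 (−0.44 ± 0.26, unadjusted p = 0.116). Next came rps29, a small-subunit protein (−0.38 ± 0.26, unadjusted p = 0.166). The stalk genes rplp2 and rplp2l had −0.39 ± 0.27 and −0.36 ± 0.26. For rplp2 the samples held 378, 631 and 555 CPM in HOM, against 569, 816, 656, 619.9 and 751 CPM in HET. HOM2 lay among the HET samples here, and none of these genes passed after adjustment.

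**Figure D4:**
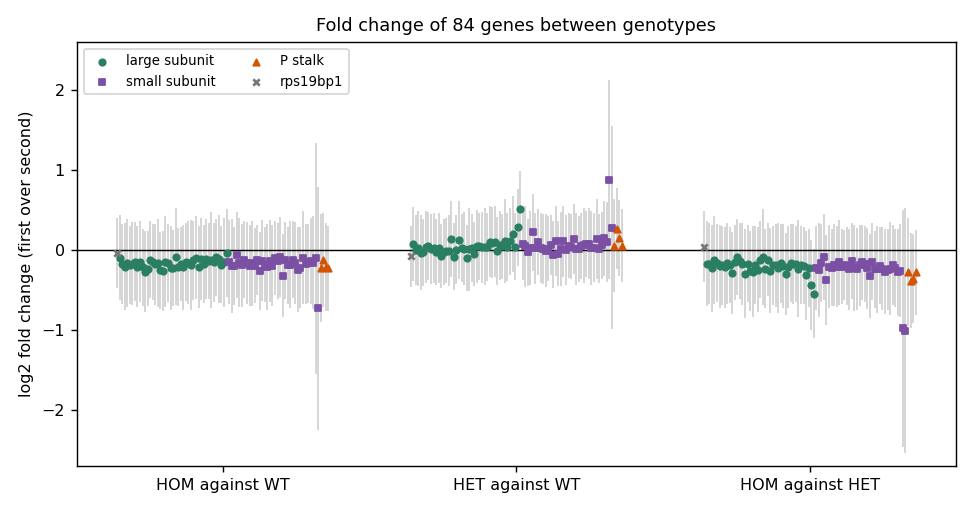
Log2 fold change (vertical axis, first genotype over second) of the 84 genes in 3 comparisons, with 95% intervals as grey lines. Symbols mark the subunits; medians were −0.17 for HOM against WT, 0.04 for HET against WT and −0.21 for HOM against HET, and the interval of rpl7l1 in HET against WT (0.03 to 0.98) was the only one that did not cover 0.

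The stalk base, rplp0, illustrates the size of the spread within a genotype. It had 1897, 3626 and 2718 CPM in HOM, 2609, 4161, 2963, 3187 and 3740.4 CPM in HET, and 2565, 3706, 2558, 2518 and 4731 CPM in WT. The lowest sample was a HOM and the highest a WT, and the log2 fold change came to −0.23 ± 0.31 with HOM over WT and 0.05 ± 0.27 with HET over WT. As rplp0 often serves as a reference gene in quantitative PCR, its SD of 0.36 may be set beside that of rps27.1 (0.17), whose values ran from 472 to 587 CPM in HOM, 520.5 to 702 CPM in HET and 500.3 to 638 CPM in WT.

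Zebrafish keep pairs of related genes for several ribosomal proteins, and the share of the less abundant gene in the summed RPKM of a pair does not depend on scaling between libraries. How reads that match both copies were counted is not given in the sources used here, so these shares are uncertain where the copies are nearly identical. Both genes of most pairs were abundant. The share of rplp2l in the pair with rplp2 was 47.2%, 36.8% and 39.8% in HOM, 32.8% to 45.8% in HET and 38.1% to 48.0% in WT.

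Of the rpl5 pair, ENSDARG00000015862 held 38.8% to 46.0% in HOM, 39.9% to 45.5% in HET and 40.7% to 45.8% in WT. Of the rps26 pair, ENSDARG00000037071 held 38.7% to 46.1% in HOM, 39.3% to 46.4% in HET and 39.99% to 45.2% in WT. A lower share was held by rps27.2, with 23.6% to 27.9% in HOM, 24.5% to 29.9% in HET and 23.1% to 29.7% in WT, and by rpl22l1, with 23.8% to 27.5% in HOM, 23.1% to 30.9% in HET and 23.2% to 25.5% in WT. In each of these pairs the ranges of the 3 genotypes overlapped.

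For rpl7l1 the share of its pair with rpl7 was 1.34%, 1.37% and 1.004% in HOM, 1.49%, 1.63%, 1.70%, 1.77% and 1.52% in HET, and 0.857%, 1.12%, 1.04%, 1.61% and 1.02% in WT. All HET samples were above all HOM samples and above 4 of the WT samples, the exception being WT4. This share was 1 of 9 examined and was not tested.

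The slope of the members on the amount of skeletal muscle transcripts in a sample was examined after the values had been seen. The mean log2 CPM of the 39 muscle genes, centred per gene, was −1.80, 1.17 and −0.43 in HOM1 to HOM3, −1.05, 0.48, 0.34, 0.77 and 1.48 in HET1 to HET5, and −0.73, 1.04, −0.65, −2.34 and 1.72 in WT1 to WT5. The slope of each gene on this mean was fitted across all genes with genotype in the model. Of the 84 members, 8 had a slope above 0 that passed edgeR's quasi-likelihood test, or 9.52%, beside 8.59% of all genes, and 0 passed below 0, beside 2.83% of all genes. The share that passed was thus close to that of all genes. With DESeq2 size factors 2 members passed, and without scaling 1. The share of all genes under those settings is not reported here. Passing or not, 82 slopes were above 0, beside 48.7% of all genes, with a median of 0.12 log2 units per log2 unit of the muscle mean against −0.01 over all genes; the members move together, so these are not 82 separate observations.

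Among the 8 was rplp0, with a slope of 0.25 ± 0.06 (SE, adjusted p = 0.0199 in edgeR), which is 1.19-fold per doubling. WT5, highest in muscle transcripts, also had the most rplp0 (4731 CPM), but HET2, with a muscle mean of 0.48, came next (4161 CPM), and WT4, lowest in muscle transcripts, had 2518 CPM, above the 1897 CPM of HOM1. The adjusted p of rplp0 was 0.139 without scaling, 0.0542 without HET1, 0.0674 without HOM1, 0.106 without WT5 and 0.141 without WT1 and WT5. Others among them were rpl29, rplp2, rpl14, rps27.2, rps24 and rps28, with adjusted p-values from 0.0420 to 0.0479 in edgeR. When samples were left out in turn, 1 to 15 members passed, and the share of all genes in those fits is not reported here. The slope of rps27.1, picked as the least variable member over these same samples, was 0.07 ± 0.05 (adjusted p = 0.38 in edgeR). A small SD limits the slope that a gene can have, so this is not a separate result.

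**Figure D5:**
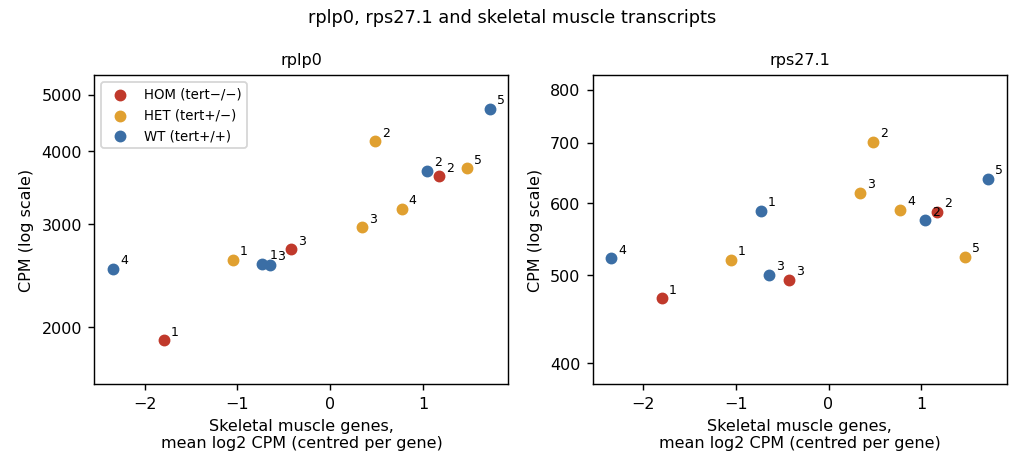
CPM (log scale) of rplp0 (left) and rps27.1 (right) against the mean log2 CPM of 39 skeletal muscle genes, centred per gene, in 13 skin samples. Points are samples with their replicate number, coloured by genotype; the fitted slope of rplp0 was 0.25, and its samples ran from 1897 to 4731 CPM.

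Genes that make, supply and check ribosomes were read from lists beside the members. Ribosomal proteins that carry other names (3 genes, among them fau and rack1) had medians of −0.16 with HOM over WT, −0.00053 with HET over WT and −0.18 for HOM against HET. The 19 tested translation elongation and release factors had a median of −0.17 in HOM against WT, with 15 below 0 (beside 56.8% of all genes), and the 52 initiation factors one of −0.03.

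Factors of ribosome assembly had a median near 0 in HOM against WT, and its sign turned with single samples. Of 97 tested, 44 were below 0 (45.4%, beside 56.8% of all genes), with a median of 0.01. That median ran from −0.07 (without HOM2) to 0.09 (without WT4) when samples were left out in turn. In HET against WT the median was 0.22, with 87 above 0 (89.7%, beside 45.6% of all genes), and it ran from 0.13 (without HET2) to 0.28 when samples were left out in turn. An unadjusted p under 0.05 was reached by 8 of them, or 8.25%, beside 5.5% of all genes, each higher in HET. Among these were nmd3, the export adaptor of the large subunit (16.3 ± 3.23 CPM in HET and 11.3 ± 1.65 CPM in WT, log2 fold change 0.52 ± 0.17, adjusted p = 0.794 in edgeR), mak16 (0.49 ± 0.19) and the box C/D snoRNP proteins nop56 (147 ± 27.9 CPM in HET and 101 ± 21.7 CPM in WT, 0.54 ± 0.22) and nop58 (0.53 ± 0.24). In HOM against HET, 88 of the 97 were below 0 (90.7%, beside 51.2% of all genes), with a median of −0.21.

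The 14 genes of RNA polymerase I and rRNA transcription had medians of −0.05 for HOM against WT, 0.24 for HET against WT with 13 above 0 (92.9%, beside 45.6% of all genes), and −0.32 for HOM against HET with 14 below 0 (100%, beside 51.2%). The 73 mitochondrial ribosomal protein genes, which are encoded in the nucleus but serve the ribosome of the mitochondrion, had medians of −0.10, 0.24 and −0.34 in the same order, with 58, 2 and 73 genes below 0 (79.5%, 2.74% and 100%, beside 56.8%, 54.4% and 51.2% of all genes). Their mean log2 CPM, centred per gene, was −0.37, 0.12 and −0.15 in HOM1 to HOM3. It was −0.37, −0.18, −0.04, 0.49 and 0.90 in HET1 to HET5. In WT1 to WT5 it was −0.34, −0.11, −0.41, −0.20 and 0.66, so the genotypes overlapped. The 38 genes of growth signalling had medians of −0.07, 0.06 and −0.10, the 17 tested genes of the p53 checkpoint −0.0028, 0.06 and −0.18, and the 23 of ribosome quality control −0.03, 0.01 and 0.02. Genes of a list can move together between samples, which was not tested here, so their signs may not be separate observations. HET against WT and HOM against HET also share the HET samples. In none of these lists did edgeR call a gene in any comparison. An unadjusted p under 0.05 in edgeR was reached by 2 of the 14 RNA polymerase I genes in HOM against HET (14.3%, beside 2.74% of all genes). Both were lower in HOM. In the other lists and comparisons the share was at most 8.25%, and in HOM against WT it was 0% in each list, beside 2.73% of all genes.

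Transcripts of other cell types and of the mitochondrion also moved between samples, and several of their medians rested on single libraries. All 28 tested liver and plasma protein genes were below 0 in HOM against WT (beside 56.8% of all genes), with a median of −4.50. In HET against WT all 28 were also below 0 (beside 54.4% of all genes), with a median of −3.94. The mean log2 CPM of these genes, centred per gene, was −2.997, −1.72 and 0.67 in HOM, −1.31, 0.25, −0.23, 0.20 and −0.55 in HET, and 2.49, 0.92, −2.48, −0.81 and 5.57 in WT, so that WT5 and WT1 were highest and WT3 was below every HET sample. Without WT5 the medians were −1.85 and −1.34, and without WT1 and WT5 they were −0.44 (HOM against WT) and 0.04 (HET against WT).

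The 39 skeletal muscle genes had a median of −0.27 with HOM over WT, with 32 below 0 (82.1%, beside 56.8% of all genes), which was 0.33 without WT5 and −1.33 without HOM2. With HET over WT it was 0.33, against 0.88 without WT5 and −0.00089 without HET5. The 13 tested red blood cell genes had medians of −0.40 in HOM against WT and −0.85 in HET against WT, which turned to 1.52 and 0.99 without WT2, and the first also to 0.18 without HOM1. Leukocyte genes had a median of 0.30 in HOM against WT, with 13 of 23 above 0 (56.5%, beside 43.2% of all genes). Without HOM2 it was 0.10. In HET against WT the median was 0.48, with 20 of 23 above 0 (87.0%, beside 45.6% of all genes). Of the 23, 6 had an unadjusted p under 0.05 in edgeR in HET against WT (26.1%, beside 5.5% of all genes). That last median lay between 0.38 and 0.55 when samples were left out in turn.

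Skin epithelium genes had a median of −0.23 in HOM against WT, with 19 of 25 below 0 (76%, beside 56.8% of all genes). In HET against WT it was −0.28, with 16 of 25 below 0 (64%, beside 54.4% of all genes). With samples left out in turn, the first ran from −0.49 (without WT5) to −0.06 (without WT3). The second ran from −0.45 (without WT5) to −0.0057 (without WT1). The 13 mitochondrially encoded genes had medians of 0.79 in HOM against WT and 0.69 in HET against WT. All 13 were above 0 in both, beside 43.2% and 45.6% of all genes. The first median was 0.37 without HOM3 and 1.27 without HOM1. No gene of these lists was called by edgeR in any comparison. Of the 28 liver and plasma protein genes, 19 had an unadjusted p under 0.05 in HOM against WT (67.9%, beside 2.73% of all genes). In HET against WT 26 had one (92.9%, beside 5.5% of all genes). Both counts include WT5 and WT1, which were highest in these genes, so these p-values are not separate observations. Without WT1 and WT5 the medians of these genes were −0.44 (HOM against WT) and 0.04 (HET against WT). The medians of the ribosomal protein genes with the liver or muscle mean as covariate are given above for HOM against WT. In HET against WT they were 0.12 and −0.03, with 5 and 55 of the 84 members below 0. The medians over all genes there were −0.0042 and −0.0055. In HOM against HET the medians of the members were −0.15 and −0.13, against −0.03 and −0.02 over all genes. The part of leukocyte, red blood cell and epithelium transcripts in the values of the ribosomal protein genes was not tested.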

How the data were processed

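Polyadenylated RNA of 13 skin samples was sequenced. The library kit (TruSeq v2) keeps no strand, so a gene and an antisense partner share their reads. The authors deposited whole-number read counts per gene, for which the submitters' processing notes name featureCounts 1.4.6-p4, STAR 2.4.1d, bcl2fastq 1.8.4 and the build GRCz10, without settings. A second deposited table labelled RPKM was treated as a score. Its values fit gene lengths only if the totals of the 13 libraries cycle from row to row (median coefficient of variation of the implied length 0.0026%, against 32.3% with each library's own total, over 3854 genes above 200 counts in all samples). It served only to recover gene length, and RPKM was recomputed with each library's own total. No coordinates are given, as no genome of that build was used here.

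Groups came from the genotype in the labels, and replicates were numbered in record order, a number that pairs none of them. Symbols were known for 26269 genes (81.8%), and 96 started as the rule asks, of which 12 were left out. The symbol table did not hold rpl3l, rpl27a or rpl36a, which were not analysed here. All columns belonged to the 13 samples.

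Counts were tested in R 4.3.3 with edgeR 4.0.16 (filterByExpr, 19141 genes kept; TMM scaling; robust glmQLFit; glmQLFTest, two-sided; Benjamini-Hochberg over all genes; threshold 0.05), with all 13 samples in a shared fit. Levels are scaled CPM or RPKM. The fit was tested on simulated counts. Alternatives were DESeq2 1.42.0, limma 3.58.1 on log2(RPKM + 0.1) and log2(RPKM + 1), DESeq2 size factors, no scaling, scaling without mitochondrial genes, no filter, 1 CPM in 3 samples, no robust moderation, fits of the compared groups alone, muscle or liver covariates, an adjusted p under 0.1, and samples left out. The slope on muscle transcripts was added after seeing the data.

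The members and all gene lists were chosen with earlier results of these data known. Genes named by rule were those called or, as under 5 were called, the 8 with the smallest p per comparison, both genes of each pair, rplp0, rplp1, rplp2, rpsa, rps27a, and the 5 highest and lowest by RPKM and by SD of log2 CPM. Other genes named were chosen after their values were seen, and some members are not reported here.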

Additional observations from a re-analysis of the deposited data

Results flagged for a closer look

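In 80 groups of 5 samples (HET or WT samples, for the levels of named genes, the shares of the pairs and the summed levels), 3 held a sample far from the others by Dixon's criterion (a gap over 0.71 of the range), and chance alone gives about 1 in 20. HET2 had 2451 CPM of rpl3, while the other HET samples held 1582 to 1811 CPM. WT5 had 1635 CPM of rpl7a, while the other WT samples held 1312 to 1398 CPM, and 1377 CPM of rps4y2, while the others held 1069 to 1149.9 CPM. In scaled CPM, HET2 and WT5 were also the samples in which the median of all 84 members was highest, so these 3 results are not independent of each other.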

How the results depend on the processing

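No ribosomal protein gene was called in any comparison under any alternative run. Over all genes, where edgeR called 0, DESeq2 called 40 (HOM over WT), 105 (HET over WT) and 1 (HOM over HET); the cause was not tested. The median fold change of the members in HET against WT was −0.22 without scaling, −0.23 with limma on log2(RPKM + 0.1) and −0.22 with log2(RPKM + 1). There the median of all genes was −0.29, −0.24 and −0.16. In HOM against WT, the same settings gave member medians of −0.36, −0.38 and −0.38, against −0.17 in the main fit. The median of all genes was then −0.21, −0.21 and −0.13, against −0.05 in the main fit. In the same order of settings, the HET against WT value turned below 0 for rps29 (−0.038, −0.029, −0.029), rpl38 (−0.064, −0.049, −0.049), rps21 (−0.12, −0.12, −0.12) and rps27.2 (−0.11, −0.094, −0.094). The alternatives gave 624 values for 24 fold changes, those with the smallest p in each comparison, so other named members were not covered. Of these 624, the other 612 kept their direction and their side of the threshold. Among all 84 members, 18 were below 0 in HET against WT in the main fit. That number was 79 without scaling and 80 with each limma setting. The median over members ran from −0.31 to −0.05 (HOM over WT), −0.08 to 0.13 (HET over WT) and −0.35 to −0.09 (HOM over HET) with samples left out in turn. The summed level was 10.5%, 11.7% and 11.4% in HOM, HET and WT outside the mitochondrial genome, whose counts are then taken from the denominator. Members with a slope on muscle transcripts that passed numbered 2 with DESeq2 size factors, 1 without scaling and 2 with scaling outside the mitochondrial genome. They numbered 1 without WT1 and WT5, and 1 to 15 with samples left out in turn. The share of all genes that passed under these settings is not reported here, so these counts show no change particular to the members. No paired analysis was possible because the labels give the samples no shared replicate numbers. The planned relation of rpl3l with muscle genes could not be run, since the symbol table does not hold that gene. With 3 HOM samples, the median 95% interval of a member still allowed a HOM level from 0.624 to 1.27 times that of WT.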
